A study of Mus musculus with 27 samples.

Results

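The cytosolic ribosomal protein genes of mouse liver were represented by 49 of the 12488 probe sets of an Affymetrix array, and these stood for 35 genes. Members were the probe sets whose only annotated symbol was Rpl or Rps with a number, together with Rplp0 and Rpsa. The S6 kinases, whose symbols also begin with Rps, and marked pseudogenes were left out. No probe set with a single symbol stood for Rplp1, Rplp2, Rpl3, Rpl5, Rpl11, Rps6 or Rps27a. Tests were run on probe sets brighter than the array's median in 9 or more of the 27 arrays, which kept 34 member probe sets for 27 genes (13 Rpl and 14 Rps) among 6784 tested probe sets.

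Liver RNA of 27 mice was hybridised to 1 array per mouse, in 3 groups of 9 that the labels name Dex, Veh and Con. These names are not spelled out in the labels, which give no strain, sex, age, dose or time, so the groups go by their labels and nothing is known of what they share beyond the tissue. Each liver was a separate animal. Hepatocyte markers were bright in all 3 groups, as the summed intensity of the 6 measured markers was 42940 to 106800 in Dex, 37110 to 80700 in Veh and 35660 to 64470 in Con.

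The ribosome is made of a small 40S subunit, which holds the mRNA and decodes it, and a large 60S subunit, which forms the peptide bonds. Each subunit carries ribosomal RNA and a fixed set of proteins, most of them in a single copy, and the Rps genes encode the proteins of the small subunit and the Rpl genes those of the large one. Their mRNAs are among the most abundant of the cell and usually begin with a C followed by a run of pyrimidines, the terminal oligopyrimidine tract, through which growth signalling by mTOR adjusts their translation. The liver makes plasma proteins for the whole body and depends on a large ribosome content.

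Promoter letters were read for the 28 of 35 genes that matched the RefSeq promoter table (build GRCm38.p6), from 250 bases before to 50 bases after each annotated start. The stretches below run from 30 bases before the start to 20 bases from it. They belong to the 4 genes, of the 8 that rose in Dex livers against Con livers, which hold 1 or more of the searched motifs within this stretch, either a terminal oligopyrimidine start or the letters CCGGAAG. Capitals mark those letters. CTTCCGG is the same motif read on the other strand.
Rps10, chr17:27635225-27635274, minus strand: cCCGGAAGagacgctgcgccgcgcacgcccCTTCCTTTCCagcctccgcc
Rps18, chr17:33955646-33955695, minus strand: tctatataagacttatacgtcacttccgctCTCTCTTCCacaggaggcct
Rps3a1, chr3:86142649-86142698, minus strand: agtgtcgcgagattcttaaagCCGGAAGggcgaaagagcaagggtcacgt
Rps7, chr12:28635934-28635983, minus strand: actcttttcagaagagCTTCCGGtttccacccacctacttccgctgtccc

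CCGGAAG, the core that ETS family factors such as GABPA bind, stood on either strand in the 300-base window of 12 of 28 ribosomal protein genes (42.9%) and of 9.12% of the 27025 genes of the table. The 12 were Rpl6, Rpl19, Rpl38, Rpl39, Rpl39l, Rpl41, Rps3a1, Rps7, Rps10, Rps18, Rps27l and Rpsa. By change, they were in 6 of the 8 genes that rose in Dex vs Con (all but Rps3 and Rps28) and in 2 of the 14 other tested genes with a promoter entry, Rpl6 and Rpsa. This is a description, with no test. All 8 genes that rose had a mean log2 intensity of 10 or more, and of the 10 dimmer tested genes 0 rose. With quantile normalization or cyclic loess, only Rpl19 rose in Dex vs Con. The part of brightness and scaling in this split was not tested. A terminal oligopyrimidine start, counted when the start base was a C followed by at least 4 pyrimidines, stood at the annotated start of Rpl38, Rps10, Rps18 and Rps27 (14.3% of 28, against 2.49% of all genes). The YY1 letters AAGATGGC were found on either strand in Rpl13a, Rpl35a, Rpl7l1 and Rps27 (14.3%, against 2.88%). The TATA box letters TATAAA were found on the gene's strand in Rpl39, Rplp0 and Rps28 (10.7%, against 8.88%). These are letters in a window around 1 annotated start per gene, and none of them is shown to be bound or used in these livers.

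The deposited values had already been brought to a common trimmed mean per array by the authors, as the values themselves show, and they were analysed on the log2 scale. Array medians were 24.77 ± 5.36 in Dex, 23.43 ± 4.72 in Veh and 28.16 ± 3.75 in Con (intensity, SD, n = 9 each). The beta-actin control signal at the 3′ end over that at the 5′ end, a log2 ratio which rises with RNA breakdown, was 0.886 ± 0.169 in Dex, 1.27 ± 0.318 in Veh and 0.947 ± 0.243 in Con. The Gapdh ratio was 0.237 ± 0.157 in Dex, 0.50 ± 0.251 in Veh and 0.354 ± 0.116 in Con. Counts are also given without Dex 1, Dex 2 and Dex 3, an alternative set with earlier results of these data known. A change is a log2 difference from a limma fit over all 27 arrays, with its standard error, and a gene rose or fell when its Benjamini-Hochberg adjusted p over the 6784 probe sets was under 0.05. Where a gene had several tested probe sets, the brightest stood for it. Intensities of different probe sets depend on their sequences, so the level of 1 gene is not set against that of another. In whole liver, more cells of a type and more RNA per cell cannot be told apart.

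Among the 27 probe sets that stood for a gene, the brightest were those of Rpl41, Rps18 and Rps24, with mean log2 intensities of 13.58, 12.34 and 12.21. The dimmest of the 27 were those of Rps29, Rpl7l1 and Rps13, with 4.86, 4.97 and 5.52. A level of 10 split the 27 genes into 17 bright and 10 dim ones. This split was chosen after the values were seen. Rpl37a lay just inside it at 10.26 and Rpsa just outside at 9.82. Within groups the standard deviation was smallest for Rps27, Rpl7 and Rps10 (0.212, 0.234 and 0.266 on the log2 scale). It was largest for Rps4l, Rps29 and Rps13 (0.892, 0.841 and 0.774), which all belong to the dim genes.

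The comparison of Dex with Con livers held most of the changes. Of the 27 genes, 8 rose and 0 fell, while 16.4% of all tested probe sets passed the test, 3.26% by rising and 13.2% by falling. The genes that rose were 6 of the 14 tested Rps genes (Rps3, Rps3a1, Rps7, Rps10, Rps18 and Rps28) and 2 of the 13 tested Rpl genes (Rpl19 and Rpl41). The median change over the 27 genes was 0.33, against -0.20 over all tested probe sets, and 21 of 27 were higher. An unadjusted p under 0.05 was found for 14 of the 27 genes and for 31.5% of all tested probe sets. Without Dex 1, Dex 2 and Dex 3 the median was 0.27, and only Rpl19 and Rpl41 passed. Without Dex 2 or without Dex 4 the number of genes that rose was 4, without Con 1 or without Con 7 it was 5, and without Dex 8 it was 12.

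Among the proteins of the large subunit, Rpl19 lies at the contact with the small subunit. Its lowest, median and highest intensities were 2648, 3831 and 7661 in Dex, 2888, 3688 and 4304 in Veh, and 2275, 2511 and 3013 in Con. Every Dex mouse lay above the Con median and 7 of 9 lay above the highest Con mouse, so the groups overlapped only through Dex 6 and Dex 8. The change was 0.66 ± 0.16, or 1.59-fold (limma adjusted p = 0.00623). Rpl19 kept its call in all 15 alternative settings tried, with changes between 0.36 and 0.87 and adjusted p up to 0.0388, and in all 27 fits that left out 1 array, with adjusted p up to 0.0153.

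Rpl41 encodes a very short and basic peptide of the ribosome. Its intensities were 9789, 13861 and 22608 in Dex, 9635, 13444 and 17380 in Veh, and 8204, 9924 and 11064 in Con (lowest, median, highest). In Dex, 8 of 9 mice lay above the highest Con mouse, and the lowest Dex mouse lay just under the Con median. Rpl41 was 1.53-fold higher (0.61 ± 0.14, limma adjusted p = 0.00574). The call ended with quantile normalization or cyclic loess (adjusted p up to 0.368) and held in the other 13 settings. Its probe set bears a mark of the array's design for probes shared within a sequence family, so related sequences can add to its signal.

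**Figure D1:**
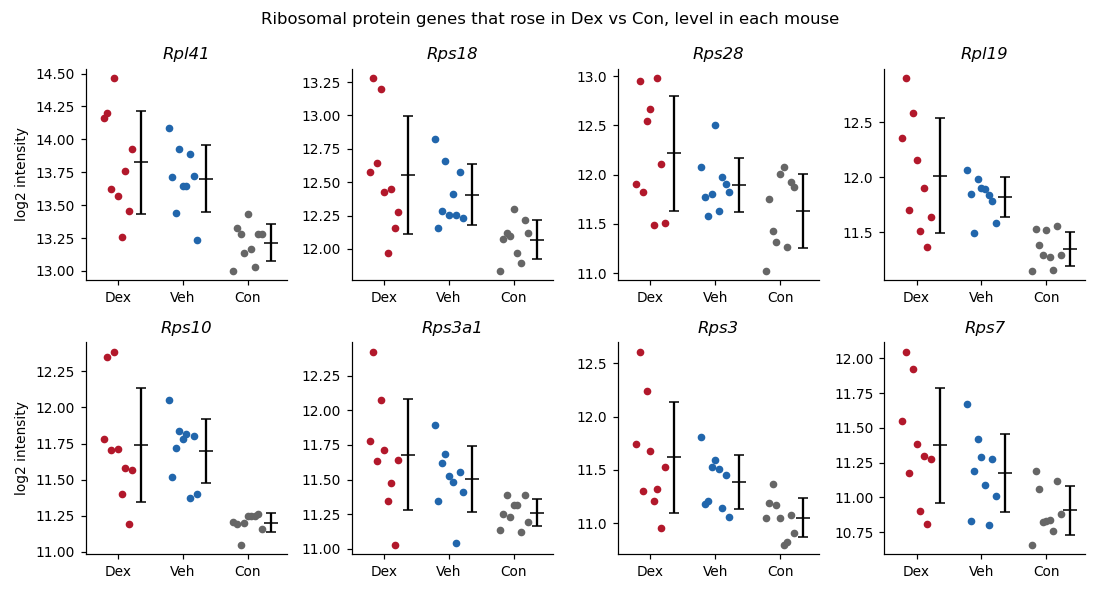
Log2 intensity of the 8 ribosomal protein genes that rose in Dex vs Con, 1 panel per gene with its own axis. Each point is 1 mouse (9 per group) and the bars are the mean and SD of the group. The Dex mice spread more widely than the Con mice, and in each panel the highest mice are Dex mice.

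Rps10 and Rps3 sit where mRNA enters the small subunit, and Rps10 is a protein whose ubiquitination follows ribosome stalling. Rps10 had intensities of 2337, 3333 and 5344 in Dex, 2653, 3518 and 4241 in Veh, and 2120, 2358 and 2457 in Con. It rose by 0.54 ± 0.13 in Dex vs Con (limma adjusted p = 0.00824), with 8 of 9 Dex mice above the highest Con mouse. Rps3 had 1989, 2956 and 6239 in Dex, 2124, 2800 and 3585 in Veh, and 1781, 2122 and 2644 in Con. Its change was 0.57 ± 0.16 (limma adjusted p = 0.0183), and 5 of 9 Dex mice lay above the highest Con mouse, so the upper Con values and the lower Dex values overlapped. Of 15 alternative settings, the Rps10 call held in 12 and the Rps3 call in 10. Both held in all 27 fits that left out 1 array.

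Rps28 and Rps3a1 lie near the exit of the mRNA path. Rps28 had 2866, 4411 and 8073 in Dex, 3070, 3613 and 5825 in Veh, and 2083, 3440 and 4318 in Con, a change of 0.59 ± 0.19 (limma adjusted p = 0.0371) with 5 of 9 Dex mice above the highest Con mouse. This probe set bears the same family mark as that of Rpl41. The Rps28 call held in 7 of 15 alternative settings and in 19 of 27 fits that left out 1 array. Rps3a1, the mouse gene for the protein eS1, had 2090, 3196 and 5492 in Dex, 2106, 2949 and 3806 in Veh, and 2225, 2440 and 2677 in Con. It rose by 0.42 ± 0.14 (adjusted p = 0.0347 in the same limma fit), with 7 of 9 Dex mice above the highest Con mouse and 1 below the lowest. The Rps3a1 call held in 8 of the 15 settings and in 20 of the 27 fits.

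Rps18, a protein of the head of the small subunit, had intensities of 4003, 5579 and 9941 in Dex, 4570, 4983 and 7248 in Veh, and 3661, 4392 and 5029 in Con. It rose by 0.48 ± 0.15 (limma adjusted p = 0.0243). Rps7, known also for binding the p53 regulator MDM2 when ribosome assembly fails, had 1795, 2524 and 4230 in Dex, 1786, 2332 and 3265 in Veh, and 1620, 1831 and 2335 in Con. It rose by 0.47 ± 0.15 (limma adjusted p = 0.0297). For each of these genes 8 of 9 Dex mice lay above the Con median and 6 above the highest Con mouse. Each of the 2 calls held in 9 of 15 alternative settings. Of the 27 fits that left out 1 array, Rps18 kept its call in 25 and Rps7 in 22.

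The 3 tested probe sets of Rps28 did not separate the groups alike. Its second probe set, which bears no mark for shared or relaxed probes, had intensities of 3077, 4097 and 7961 in Dex, 2944, 3916 and 4352 in Veh, and 1822, 2202 and 2694 in Con. All 9 Dex mice and all 9 Veh mice lay above the highest Con mouse on this probe set. How many of all tested probe sets separate in this way is not given here. The change was 1.02 ± 0.15 in Dex vs Con (limma adjusted p = 2.22e-04) and 0.73 ± 0.15 in Veh vs Con (adjusted p = 0.00894). With quantile normalization these changes were 0.70 and 0.53 (adjusted p = 1.79e-04 and 0.00868), with cyclic loess 0.73 and 0.47 (4.79e-04 and 0.0378), and with arrays centred on their medians 1.22 and 1.01 (0.00379 and 0.0352). The remaining probe set, which was dimmer, gave 0.37 ± 0.29 in Dex vs Con and -0.28 ± 0.29 in Veh vs Con, with adjusted p of 0.389 and 0.574.

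Other genes with several probe sets disagreed as well. The brightest probe set of Rpl10a, the protein of the mobile stalk at the tRNA exit site, changed by 0.32 ± 0.19 in Dex vs Con (limma adjusted p = 0.254). Its second, family-marked probe set fell by 0.85 ± 0.23 (adjusted p = 0.0138), with all 9 Dex mice below the Con median. That fall was 0.88 with quantile normalization and 0.82 with cyclic loess (changes of -0.877 and -0.818, adjusted p = 0.0162 and 0.0252), and with arrays centred on their medians the change was -0.65 (0.160). The 3 tested probe sets of Rps4x changed by between -0.70 and 0.64 in Dex vs Con and none passed. Both ends of this range came from dim probe sets (mean log2 3.65 and 4.19), each above the array median in 9 of 27 arrays. Their standard errors were 0.61 and 0.46, so these changes are weakly measured. The bright, unmarked probe set of Rps4x changed by 0.31 ± 0.14 (adjusted p = 0.122). For Rps24 the bright probe set (mean log2 12.21) carries the same source sequence in the annotation as that of Rpl7, and the other Rps24 probe set was dim (4.65), so which gene the bright one measures is uncertain.

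**Figure D2:**
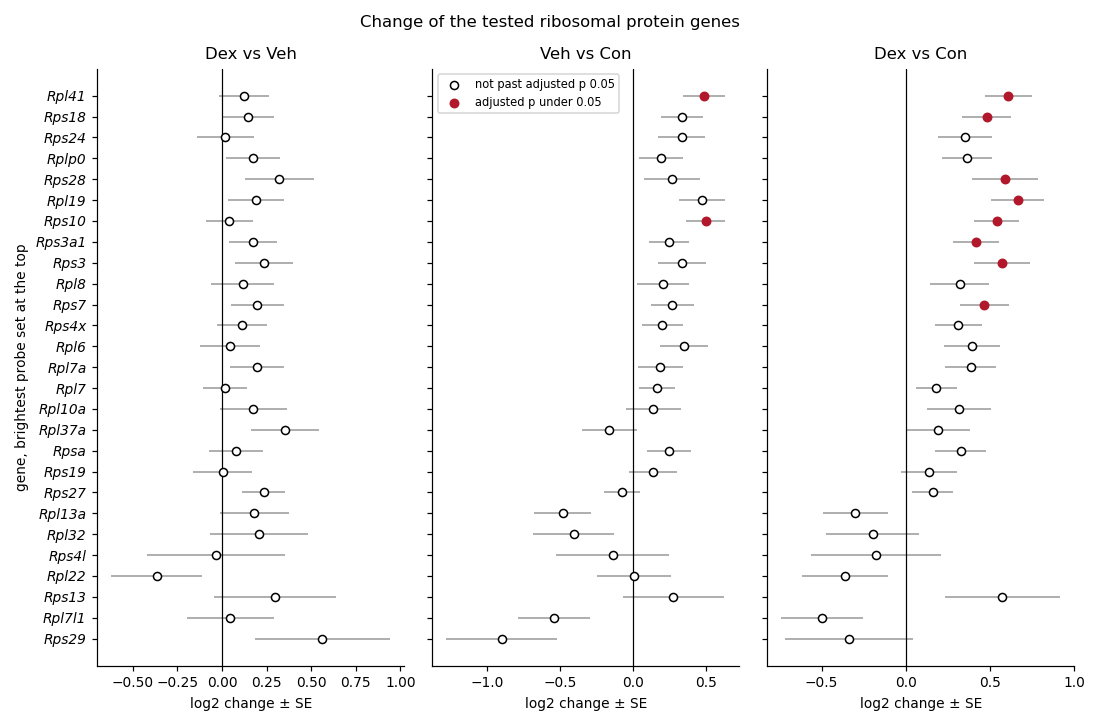
Change of the 27 tested ribosomal protein genes in the 3 comparisons (log2 change ± SE from the limma fit, brightest probe set at the top). Filled points had an adjusted p under 0.05. The Dex vs Con panel has 8, the Veh vs Con panel 2 and the Dex vs Veh panel 0, all of them to the right of 0 and in the upper part of the plot.

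The members fixed by name did not all rise. Rplp0, the base of the stalk that recruits elongation factors and a common reference gene, had 2704, 4278 and 7247 in Dex, 3007, 3960 and 6067 in Veh, and 3211, 3448 and 4009 in Con. The change of Rplp0 in Dex vs Con was 0.36 ± 0.15 (limma adjusted p = 0.0929). Rpsa, which is also known as a laminin receptor, had 588, 980 and 1458 in Dex, 741, 896 and 1571 in Veh, and 681, 805 and 895 in Con. Rpsa changed by 0.33 ± 0.15 (adjusted p = 0.138 in the limma fit), and 6 of 9 mice of Dex lay above the highest Con mouse for both genes.

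Rps19, the gene most often mutated in human Diamond-Blackfan anaemia, had 361, 436 and 1103 in Dex, 416, 528 and 592 in Veh, and 386, 445 and 628 in Con. Its Dex median lay below its Con median and its change was 0.14 ± 0.17 (limma adjusted p = 0.596). Rpl13a, a large subunit protein that in human monocytes also represses translation of inflammatory mRNAs, had 52.1, 84.4 and 118 in Dex, 46.5, 71.8 and 108 in Veh, and 72.1, 96.5 and 160 in Con. Rpl13a changed by -0.30 ± 0.19 in Dex vs Con (adjusted p = 0.287). Only 2 of 9 Dex mice were above its Con median. Rps14 was not tested, since its probe set lay above the array median in 0 arrays.

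The direction of a member went with how bright its probe set was. Of the 17 bright genes, 17 were higher in Dex vs Con and 8 passed (47.1%), with a median change of 0.39. Of the 10 dim genes, 4 were higher and 0 passed, with a median of -0.19. All tested probe sets showed the same order. Of the 418 with a mean log2 intensity of 10 or more, 325 were higher and 124 passed (29.7%), 113 of them by rising, with a median of 0.28. By intensity band the median over all tested probe sets was -0.29 under 6, -0.24 between 6 and 8, 0.01 between 8 and 10, 0.24 between 10 and 12 and 0.35 from 12 up.

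Scaling changed these values. With quantile normalization the median change in Dex vs Con was 0.10 over the 27 genes, 0.12 over the 17 bright genes and -0.01 over the 418 bright probe sets, and 1 gene passed, Rpl19. With cyclic loess the medians were 0.13, 0.16 and 0.002, and again only Rpl19 passed. With each array centred on its median they were 0.53, 0.60 and 0.48, and Rpl19, Rpl41 and Rps10 passed. The median of all tested probe sets was -0.04, 0.002 and 0.004 under these 3 scalings, in the order given, against -0.20 with the deposited scaling. The number of bright genes that were higher in Dex vs Con was 14 of 17 with quantile normalization, 16 with cyclic loess and 17 with median centring.

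**Figure D3:**
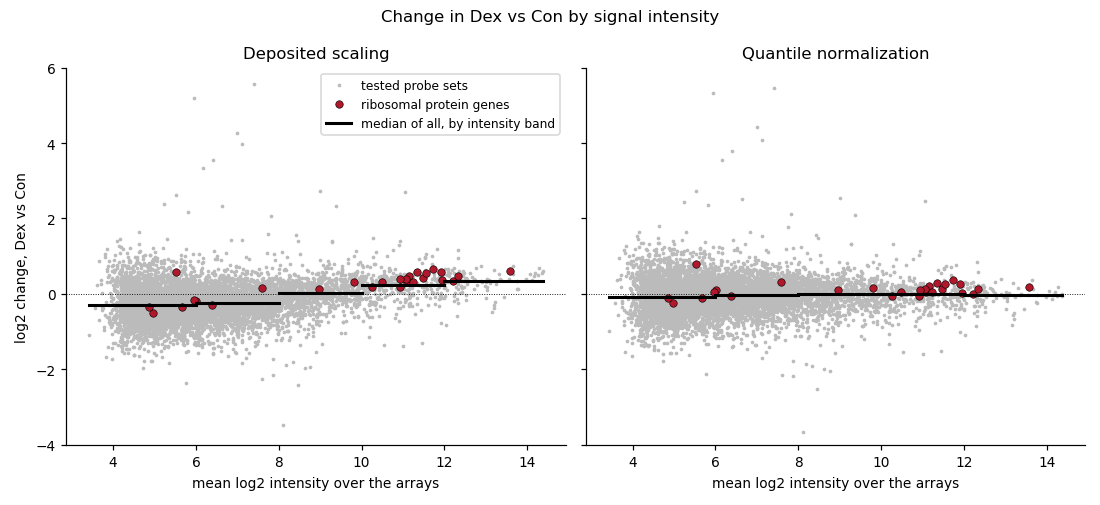
Log2 change in Dex vs Con against mean log2 intensity for all 6784 tested probe sets (grey) and the 27 ribosomal protein genes (red), with the deposited scaling on the left and after quantile normalization on the right. Black lines are medians of all tested probe sets in 5 intensity bands. On the left they climb from -0.29 to 0.35, and on the right they lie near 0 while most red points lie slightly above them.

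The mean over the 17 bright genes was 11.68 ± 0.417 in Dex, 11.52 ± 0.202 in Veh and 11.26 ± 0.111 in Con (log2 intensity, SD, n = 9 each). Individual mice ranged from 11.10 to 12.34 in Dex, from 11.32 to 11.94 in Veh and from 11.05 to 11.37 in Con. The highest were Dex 2 and Dex 4, at 12.34 and 12.29, and Dex 8 was the lowest Dex mouse at 11.10. Across all 27 genes Dex 2 was the highest Dex mouse for 11 and Dex 4 for 7, Dex 8 was the lowest for 13, and Veh 1 was the highest Veh mouse for 18. The array medians of Dex 2 and Dex 4 were 18.4 and 20.9, and that of Dex 8 was 33.3, the highest of the Dex arrays. The part of these array differences in the result was not tested. After quantile normalization the means were 11.55 ± 0.195, 11.48 ± 0.159 and 11.43 ± 0.0783 in Dex, Veh and Con, and Dex 2 and Dex 4 were still the highest of the 27 mice, at 11.87 and 11.84.

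**Figure D4:**
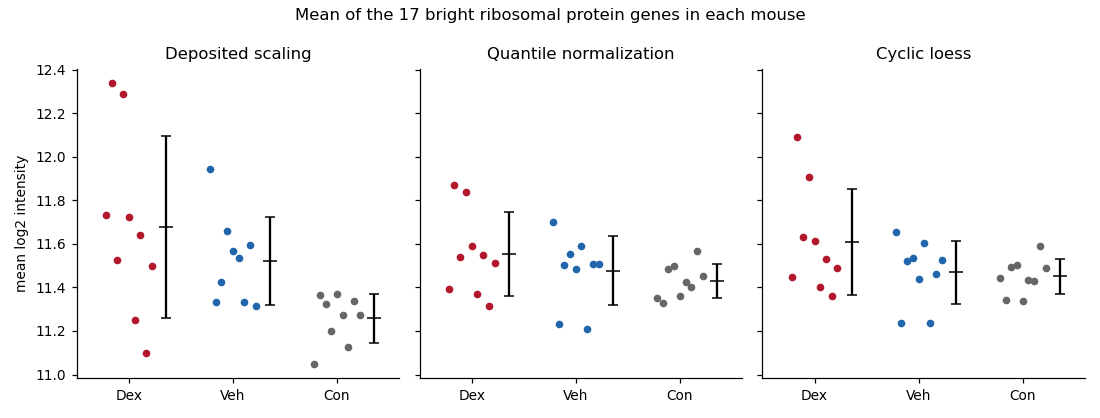
Mean log2 intensity of the 17 bright ribosomal protein genes in each mouse under 3 scalings. Points are mice (9 per group) and bars are the mean and SD of a group. Dex 2 and Dex 4 are the 2 highest mice in each panel, and the Con mice move closer to the other groups after quantile normalization or cyclic loess.

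The comparison of Dex with Veh livers gave no call among the ribosomal protein genes. Of 27 genes, 0 passed with limma and 0 had an unadjusted p under 0.05, while over all tested probe sets 0.265% passed (0.0442% higher and 0.221% lower) and 15.2% had an unadjusted p under 0.05. Of these genes, 25 were higher in Dex, with a median change of 0.17 against -0.03 over all tested probe sets. This comparison shares its Dex arrays with the comparison against Con, and the highest mice were again Dex 2 and Dex 4. Without Dex 1, Dex 2 and Dex 3 the median was 0.04. It was 0.07 without Dex 4 alone, 0.08 without Dex 2 alone and 0.12 without Veh 7 alone, and over all fits that left out 1 array it ran from 0.07 to 0.21. With quantile normalization 20 genes were higher and the median was 0.08.

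The smallest p in Dex vs Veh belonged to Rps27, a zinc finger protein of the small subunit, with 182, 210 and 251 in Dex and 155, 180 and 219 in Veh. All 9 Dex mice lay above the Veh median, 3 lay above the highest Veh mouse, and the change was 0.23 ± 0.12 (limma adjusted p = 0.355). Rpl37a, a zinc finger protein of the large subunit, had 843, 1557 and 1952 in Dex and 617, 1189 and 1546 in Veh, a change of 0.35 ± 0.19 (adjusted p = 0.367) with 5 of 9 Dex mice above the highest Veh mouse. Next came Rps28 (0.32 ± 0.19), Rps29 (0.56 ± 0.38), Rpl22 (-0.37 ± 0.25) and Rps3 (0.23 ± 0.16), with adjusted p between 0.425 and 0.495. Rplp0, Rpsa, Rpl13a and Rps19 changed by 0.17, 0.08, 0.18 and 0.004, each within the spread between mice.

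In Veh livers against Con livers 2 of 27 genes rose, Rpl41 and Rps10, and 0 fell, against 3.86% of all tested probe sets that passed, 1.19% by rising and 2.67% by falling. An unadjusted p under 0.05 was found for 10 of the 27 genes and for 23.6% of all tested probe sets. Of the 10, 7 were higher and 3 lower. The median change was 0.20, against -0.19 over all tested probe sets, and 20 genes were higher. Without Veh 1 it was 0.13. The 17 bright genes had a median of 0.27 with 2 passing (11.8%), close to the 418 bright probe sets, which had a median of 0.24 with 37 passing (8.85%). Of the 418 bright probe sets, 346 were higher in Veh than in Con. Rps10 rose by 0.50 ± 0.13 (limma adjusted p = 0.0343), with all 9 Veh mice above the highest Con mouse. The share of all tested probe sets with such a separation is not given here. Rpl41 rose by 0.49 ± 0.14 (limma adjusted p = 0.0461), with 8 of 9 Veh mice above the highest Con mouse. Both calls ended with quantile normalization, cyclic loess or median centring, and under the first 2 of these the median change of the 27 genes was 0.05 and 0.02. They also ended when the beta-actin ratio was a covariate (changes of 0.45 for Rpl41 and 0.51 for Rps10, adjusted p = 0.182 and 0.120) and with the Gapdh ratio (0.48 and 0.43, adjusted p = 0.102 for both). These ratios, signs of RNA quality, were higher in Veh than in Con, at 1.27 against 0.947 and 0.50 against 0.354, and their part in the result was not tested further. Leaving out any 1 of Con 1, 3, 6, 7, 8 or 9 or of Veh 1, 2, 4, 5 or 8 also left 0 calls.

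The members next in order in Veh vs Con went both ways. Rpl19 changed by 0.47 ± 0.16 (limma adjusted p = 0.0753), with 8 of 9 Veh mice above the highest Con mouse, and Rps18 by 0.34 ± 0.15 (0.161). Rpl13a changed by -0.48 ± 0.19 (0.130), with 1 of 9 Veh mice above the Con median. Rps29, a zinc-binding protein of the small subunit, had 5.4, 24.9 and 51.5 in Veh and 28.9, 37.8 and 51.1 in Con, a change of -0.90 ± 0.38 (adjusted p = 0.149 in the limma fit). These Rps29 signals lie near the array medians, so the size of the difference is weakly measured. Rplp0, Rpsa, Rps3 and Rps19 changed by 0.19, 0.25, 0.34 and 0.14, with adjusted p between 0.209 and 0.632.

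Close copies of ribosomal proteins were dim. Rps4l, a relative of the X-linked Rps4x, had 38.7, 44.7 and 164 in Dex, 19.6, 82.9 and 169 in Veh, and 37.0, 65.8 and 178 in Con, and the 3 groups overlapped almost wholly. Rpl7l1, a relative of Rpl7 that takes part in large subunit assembly, had 13.4, 28 and 54.2 in Dex, 18.9, 29.3 and 42.9 in Veh, and 29.0, 39.1 and 55.0 in Con. Its changes were -0.50 ± 0.24 in Dex vs Con and -0.54 ± 0.24 in Veh vs Con (limma adjusted p = 0.160 and 0.173). Rps27l, a p53 target, and Rpl39l, known from testis, were not tested, as they lay above the array median in 2 and 1 of the 27 arrays. Another 6 genes had no tested probe set (Rpl35a, Rpl38, Rpl39, Rps14, Rps15 and Rps20). A low signal on 1 probe set does not show that the mRNA was low.

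A further 39 probe sets carried several symbols, 1 of them a ribosomal protein, and fell outside the rule. Of the 33 tested, 13 rose and 0 fell in Dex vs Con (median 0.34), beside 3.26% and 13.2% of all tested probe sets. In Veh vs Con 2 rose and 1 fell (median 0.30), beside 1.19% and 2.67%. In Dex vs Veh 0 passed (median 0.14), beside 0.265%. Of the 418 bright probe sets, 113 rose in Dex vs Con, and how bright the 33 were was not taken into account. Probe sets with several symbols cannot be assigned to single genes.

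Genes of other steps of translation did not all move with the ribosomal proteins in Dex vs Con. Of 7 tested elongation genes 6 were higher and 0 passed, with a median of 0.35. Eef1a1, which delivers tRNA to the ribosome, changed by 0.39 ± 0.15 (limma adjusted p = 0.0707), and Tpt1 by 0.37 ± 0.13 (0.0557). Both probe sets were bright, with mean log2 intensities in Con of 13.13 and 12.88. Of 30 initiation genes 1 rose and 8 fell, beside 3.26% and 13.2% of all tested probe sets. The poly(A)-binding protein gene Pabpc1 rose by 0.50 ± 0.14 (0.0181). Its relative Pabpc4 fell by 1.22 ± 0.24 (0.00177), the eIF2B subunit gene Eif2b1 by 0.86 ± 0.19 (0.00339), Eif4g2 by 0.88 ± 0.20 (0.00519) and Eif1b by 0.56 ± 0.14 (0.00908).

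In the 3 lists for making cytosolic and mitochondrial ribosomes 0 genes rose in Dex vs Con, and the falls stand beside the 13.2% of all tested probe sets that fell. Of 28 genes of ribosome assembly and the nucleolus, 2 fell, Nop16 (-1.30 ± 0.27, limma adjusted p = 0.00216) and Nip7 (-0.77 ± 0.20, 0.0113), and the median was -0.21. Of 14 genes of RNA polymerase I and ribosomal RNA transcription, 3 fell, with a median of -0.25 over the 14. They were Max (-0.97 ± 0.28, 0.0180), Polr2h (-0.65 ± 0.19, 0.0189) and the initiation factor Rrn3 (limma adjusted p = 0.00728). Rrn3 lay above the array median in 9 Con, 3 Dex and 3 Veh arrays, so it was tested only because of its Con signal. Its median intensities were 23.1 in Dex, 20.5 in Veh and 41.5 in Con. No size is given for a difference from levels near background. Of 58 genes of the mitochondrial ribosome, which is a separate machine, 47 were lower and 11 fell, with a median of -0.21. Mrpl24 (-0.53 ± 0.11, 0.00295) and Mrpl35 (-0.51 ± 0.12, 0.00724) had the smallest p. The genes that fell in these 3 lists had mean log2 intensities in Con between 4.74 and 8.52, and the 3 medians lie near that of all tested probe sets (-0.20).

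Among 13 genes of growth signalling to translation, Ddit4, an inhibitor of mTOR signalling, was the 1 that passed in Dex vs Con (limma adjusted p = 0.0426). Its lowest, median and highest intensities were 15.5, 37 and 364.7 in Dex, 2.7, 19.3 and 54.6 in Veh, and 8.5, 17.7 and 32.6 in Con. Ddit4 lay above the array median in 8 Dex arrays, 3 Veh arrays and 2 Con arrays, so it was tested only because of its Dex signal, and no size is given for a difference from levels near background. Akt1 changed by -0.67 ± 0.25 in Dex vs Con (0.0595). Of 5 tested genes of ribosome-associated or fused ribosomal proteins, Nme1 fell in Dex vs Con (-1.06 ± 0.27, 0.0105) and likewise in Veh vs Con (-1.74 ± 0.27, 8.40e-04). In Veh vs Con, Eif2b1 (-0.93 ± 0.19, 0.00734) fell as well and the mitochondrial Mrpl23 rose (0.60 ± 0.14, 0.0218). Rrn3, tested only because of its Con signal, also fell in Veh vs Con (limma adjusted p = 0.0191), and no size is given. No gene of these 7 lists passed in Dex vs Veh.

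Markers of cell types moved beside these changes. Of 6 hepatocyte markers 4 rose in Dex vs Con (Alb, Apoa1, Cps1 and Tat) and 1 was lower, beside 3.26% of all tested probe sets that rose. Ass1 had medians of 194.1 in Dex and 200.6 in Con. The median of the summed intensity of the 6 markers was 66410 in Dex, 51670 in Veh and 41010 in Con. Alb and Apoa1 made up most of it, with medians of 26026 and 24968 in Dex and 16814 and 14528 in Con. Ttr had medians of 2568 in Dex and 2087 in Con. All 10 tested macrophage and Kupffer cell markers were lower in Dex than in Con. Of these, 3 fell (Mrc1, Cd5l and Ctss), beside 13.2% of all tested probe sets. Median sums of this list were 853 in Dex, 1068 in Veh and 1188 in Con. Con medians were 2948.9 (Tat) or more for the 4 that rose and 174.9 (Ctss) or less for the 3 that fell. Over all tested probe sets the direction also went with brightness, and the part of brightness in the marker changes was not tested. Markers of T cells and bile ducts were at or near background, with the median of Krt19 at the floor in all 3 groups and that of Epcam in Veh and Con. Endothelial sums ran from 801.7 to 1102 in Veh, from 565.8 to 795.3 in Con and from 632.8 to 1092 in Dex. Most of the sum was Eng, with medians of 852.5 in Veh, 505.2 in Con and 636.1 in Dex. Medians of Cdh5 were 45.6 in Veh and 44 in Con, and those of Kdr were 32.8 and 33.2. In Veh vs Con 2 of the 4 tested endothelial markers were higher and 2 lower. Of the 4 tested endothelial markers Eng rose relative to Con in Veh (0.66) as well as Dex (0.38), and Cdh5 fell in Dex relative to Con (-0.63). Neutrophil median sums were 219 in Dex, 150 in Veh and 163 in Con, and 0 of 2 tested markers passed. Median sums of dividing cell markers were 142 in Dex, 168 in Veh and 171 in Con. Red cell median sums were 4688 in Dex, 5126 in Veh and 3460 in Con. Hba-a1 made up most of these sums, with medians of 4242 in Dex, 4596 in Veh and 2750 in Con. Alas2 went the other way, with medians of 232 in Dex, 619 in Veh and 675 in Con, and it fell in Dex vs Con. Stellate cell median sums were 1155 in Dex, 1045 in Veh and 1162 in Con, and Reln fell in both comparisons with Con. Median sums of B and plasma cell markers were 372 in Dex, 298 in Veh and 324 in Con. Those of exocrine pancreas markers were between 429.9 and 446.5 in the 3 groups. Only 2 of the 5 pancreas markers were on the array, and nearly all of the sum was Cela1. Its medians were 425.9 in Dex, 435.1 in Veh and 441 in Con, so this sum reflects 1 gene. The part of these markers in the ribosomal protein changes was not tested.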

How the data were processed

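The authors deposited a linear intensity for each probe set on each array, already scaled per array, as the values show. The sources used here do not give the summarising software. Gene names came from the platform's annotation (1 symbol for 10855 probe sets, several for 396, none for 1237). Values under the 10th percentile of positive values (2.6) were set to it, log2 was taken, and 66 control probe sets were left out. Group means of the 27 arrays were fitted with limma 3.58.1 in R 4.3.3 (mean trend, two-sided, 24 residual degrees of freedom, Benjamini-Hochberg over 6784 probe sets). The fit was tested on simulated data. No 2 arrays were identical. The array number and the signal over background limit the precision, since arrays have no read depth.

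The members and the lists of translation genes and markers were chosen with earlier results of these data known. The genes named are those past the threshold (up to 10 in each direction), the smallest p up to 6 where fewer passed, fixed members, the brightest, dimmest, most and least variable members, members whose probe sets disagree, close copies, and the first few of each translation list. The main fit has no block for replicate number. Correlations of same-numbered deviations ran from -0.195 to 0.187 and were over 0.1 in 4 of 27 pairs, 3 of them in Dex vs Veh. In that comparison the median was 0.0548 for same-numbered pairs and -0.0121 for the others. There, 3 of 9 Dex mice correlated best with the Veh mouse of their own number, so a weak pairing is not excluded. Alternatives were other scalings, floors, filters, covariates, probe set choices, a replicate block and left-out arrays.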

Additional observations from a re-analysis of the deposited data

Results flagged for a closer look

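In 6 groups, 1 mouse stood apart from the other 8 of its group by a gap that passes Dixon's 95% limit for 9 samples. All values are log2 intensities. Rps13 was highest in Dex 7, at 8.05, with the next Dex mouse at 6.30, and in Con 9, at 6.24, with the next Con mouse at 5.48. Rps24 was highest in Veh 1, at 12.82, with the next at 12.43. Rpl22 was lowest in Veh 7, at 4.55, with the next at 5.64. Rpl32 was lowest in Con 4, at 5.09, with the next at 6.0. Rps10 was lowest in Con 3, at 11.05, with the next at 11.16. In all, 87 groups were examined, and chance alone flags about 5% of groups. Of the genes that rose, only Rps10 is among these, and its Con 3 value lies on the far side from the other groups. Rps13, Rpl22 and Rpl32 are dim probe sets.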

How the results depend on the processing

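In Dex vs Veh 0 genes passed in each alternative tried, and the median change of the 27 genes stayed between 0.0405 and 0.189 in those that kept all arrays or left out 3, and between 0.0704 and 0.207 when 1 array was left out. In Dex vs Con, where 8 rose, the count was 1 with quantile normalization, 1 with cyclic loess, 3 with each array centred on its median, 4 with no filter on dim probe sets, 2 without Dex 1, Dex 2 and Dex 3, and 3 with the array median as a covariate, an alternative chosen after seeing the data. The median change was 0.101, 0.127 and 0.528 with the first 3 of these scalings. Leaving out 1 array at a time gave 4 to 12, with medians of 0.256 to 0.425. In Veh vs Con, where 2 rose, the count was 0 with quantile normalization, cyclic loess, median centring, no filter, the beta-actin or the Gapdh ratio as a covariate, no mean trend or the array median as a covariate. Fitting the 2 groups alone gave 4, and array weights gave 8 (6 higher, 2 lower). The median change was 0.0485 with quantile normalization, 0.0181 with cyclic loess, 0.482 with median centring and 0.0635 with the array median as a covariate. Leaving out 1 array at a time gave medians of 0.131 to 0.236 and counts of 0 to 3, with 0 without Con 1, 3, 6, 7, 8 or 9 or without Veh 1, 2, 4, 5 or 8. With the replicate block the counts were 0 for Dex vs Veh, 1 for Veh vs Con and 8 for Dex vs Con. In the labels, same-numbered mice share only the number. The cause of these shifts was not tested. Over all tested probe sets the calls in Dex vs Con were 659 with quantile normalization, 621 with cyclic loess and 466 with median centring, against 1115. None of these medians and none of the named calls changed direction.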
